A study of Danio rerio with 44 samples.

Results

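The cytochrome P450 families CYP2 and CYP3 were followed in whole zebrafish embryos held in 1 of 3 fluorinated compounds. Members were all rows of the count table whose Ensembl identifier carries a zebrafish symbol that begins with cyp2 or cyp3 and then a letter. This gave 45 genes of the 25859 identifiers in the table, 40 of them in CYP2 and 5 in CYP3. After removal of genes with too few counts 40 of the 45 could be tested (36 CYP2, 4 CYP3) among 22703 genes. The symbols are printed as the annotation table spells them, some of them in capitals.

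Embryos of the wild type (WT) were exposed for 72 h, between 24 and 96 hours after fertilization, and 20 whole embryos were pooled for each RNA sequencing library. The compounds were PFOS (perfluorooctane sulphonate, the legacy substance), PFECHS (perfluoroethylcyclohexane sulphonate, which has a ring in its carbon skeleton) and FBSA (perfluorobutane sulphonamide, with a shorter chain and a sulphonamide head). Each was given at 4 concentrations (0.001 mg/L, 0.1 mg/L, 1 mg/L or 5 mg/L) in 0.1% DMSO beside solvent controls in 0.1% DMSO of its own, so that DMSO was common to every group. The data comprised 44 pools in 15 groups, 3 pools per group except 2 for FBSA at 0.1 mg/L. The labels number the pools but name no clutch. The p-values below rest on the variation from pool to pool, estimated over all 15 groups together unless stated.

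Cytochrome P450 enzymes of these families sit in the membrane of the endoplasmic reticulum, hold a heme group and use electrons handed on by cytochrome P450 reductase (POR) and cytochrome b5 to put oxygen into drugs, pollutants, fatty acids and steroids. In vertebrates most of this activity resides in the liver and the lining of the intestine. CYP3A genes are known targets of the pregnane X receptor (NR1I2), and the CYP2J enzymes of mammals, to which several fish CYP2 subfamilies are related, act on arachidonic acid. Many zebrafish members lie beside one another as rows of duplicated genes.

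By the gene order of the RefSeq table of assembly GRCz12tu, used for names and neighbours alone, 43 of the 45 members could be placed. A row of 11 runs cyp2n13, cyp2ad6, cyp2ad2, cyp2v1, cyp2ad3, cyp2p6, cyp2p7, cyp2p8, cyp2p9, cyp2p10 and cyp2j20 with no other protein-coding gene between them. Other kinds of gene were left out of this order. A second row holds 9 cyp2aa genes and cyp2ae1 (10 members), the third 8 cyp2k genes, and 2 rows of 4 hold cyp3c4 to cyp3c1 and cyp2x6 to cyp2x9. Neighbours of this kind are similar in sequence, and the deposited values were taken as estimates that can divide reads between copies. The values of single copies are then less certain than those of a row. No read of one copy was separated from another here.

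The library totals lay between 24478600 and 36533495 counts, at which 1 count equals 0.0275 to 0.0428 CPM (counts scaled per-million of the library total). The 5 untested members were cyp2x10.2, cyp2k31, cyp3c2, cyp2k22 and cyp2k20, whose highest count in any library was 9, 11, 14, 4 and 10 in that order. All other levels below are CPM after scaling by TMM, which takes out differences in library composition, and they are compared between groups for the same gene only. Members varied more between pools of a group than other genes did: the median within-group standard deviation was 0.54 in log2 CPM over the 40 members and 0.25 over all genes tested. It ran from 0.11 for cyp2ad3 (mean log2 CPM 6.47) to 1.40 for cyp2x7 (mean log2 CPM -0.99). The members and all genes were not matched for level, and members at a few counts carry counting error on top.

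Some FBSA pools stood apart from others of their group. The CPM summed over the 40 members was 251, 288 and 228 in the pools at 5 mg/L FBSA, against 541, 533 and 265 in the FBSA controls. The third control pool thus lay inside the range of the exposed pools. At 0.001 mg/L FBSA 1 pool reached 783 and the other two 259 and 266. In the controls of the other series the sum was 266 to 384 for PFOS and 263 to 326 for PFECHS, so the FBSA controls held both the highest and nearly the lowest control sums.

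**Figure D1:**
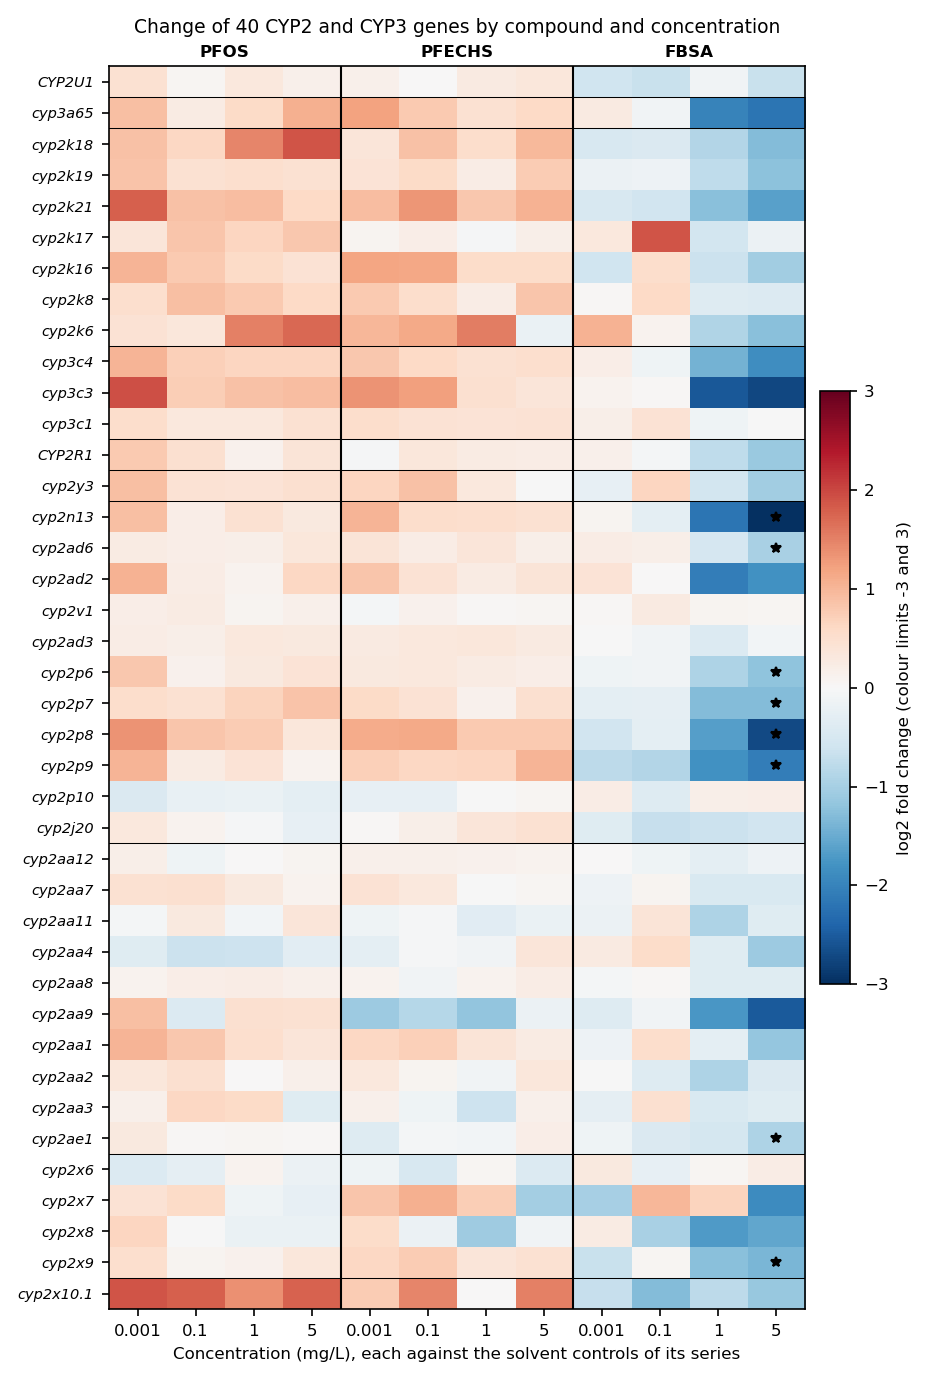
Log2 fold change of the 40 tested members (rows, grouped by neighbourhood, thin lines between rows of genes) at 4 concentrations of PFOS, PFECHS and FBSA in mg/L (columns), each against the solvent controls of its series. Stars mark adjusted p under 0.05: all 8 stars stand at 5 mg/L FBSA, while most cells under PFOS and PFECHS are on the higher side without a star.

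At 5 mg/L FBSA 8 of the 40 members fell and 0 rose, 6 of the 8 in the row cyp2n13 to cyp2j20; the other members did not pass the test. Calls rest on edgeR's quasi-likelihood F test (two-sided, Benjamini-Hochberg adjusted over all genes, threshold 0.05). Among all genes tested 5.44% fell and 5.79% rose in this comparison. A log2 fold change below 0 was found for 37 of 40 members, against 51.2% of all genes, and the median was -1.11 over the members and -0.01 over all genes. The pools did not overlap, exposed pools all lower, for 10 members, against 9.27% of all genes. The 8 were cyp2n13, cyp2p6, cyp2p7, cyp2p8, cyp2p9, cyp2ad6, cyp2ae1 and cyp2x9. Single libraries decided this count: it was 0 without the third pool at 5 mg/L, 1 and 4 without the second or first control pool, 12 without the second pool at 5 mg/L and 14 without the third control pool. In the same 5 fits 0.331%, 0.974%, 4.57%, 12.3% and 7.47% of all genes fell, so the share over all genes moved too. A fit of the FBSA libraries alone, which took its estimate of the spread from that series only, called 0 members and 0 genes. There 11 members had a lower level at unadjusted p under 0.05, against 7.7% of all genes. The part of the spread shared with the other series in the 8 calls was not tested. Of the last 11 library columns of the deposited table, 2 are FBSA control pools and 0 are pools at 5 mg/L FBSA, and with a term for these columns 13 members and 4.71% of all genes fell.

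In the row, cyp2n13, a fish CYP2 gene in the CYP2J neighbourhood, had 2.36, 2.79 and 0.741 CPM in the pools at 5 mg/L FBSA, against 22.9, 21.5 and 5.20 CPM in the controls. All exposed pools lay below all controls, and the log2 fold change was -3.07 ± 0.73 (SE; edgeR, adjusted p = 0.00861). This call held in 5 of the 6 fits that left out 1 of the 6 pools and was lost without the third exposed pool; the adjusted p ran from 0.000478 to 0.21 over 13 alternatives.

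The neighbouring genes cyp2p6, cyp2p7, cyp2p8 and cyp2p9 fell as well, and cyp2p10 did not pass the test. The calls of cyp2p6 to cyp2p9 held, in that order, in 3, 4, 2 and 4 of the 6 fits that left out 1 pool. Cyp2p8 had 2.39, 4.09 and 0.882 CPM at 5 mg/L FBSA, against 21.0, 23 and 4.16 CPM in the controls, with no overlap and a log2 fold change of -2.70 ± 0.82 (edgeR, adjusted p = 0.0322). Cyp2p9 had 6.45, 6.78 and 0.706 CPM against 17.9, 27.9 and 12.8 CPM in the controls, again with no overlap (-2.07 ± 0.55, adjusted p = 0.0163 by edgeR). In both genes the lowest exposed pool was the third. Cyp2p7 had 4.57, 2.45 and 1.73 CPM against 7.93, 8.37 and 5.34 CPM in the controls (-1.31 ± 0.32, edgeR adjusted p = 0.00953). Its groups did not overlap, although the first exposed pool came close to the third control. Cyp2p6 had 5.56, 5.00 and 3.53 CPM against 12.5, 15.1 and 5.12 CPM in the controls (-1.21 ± 0.39, edgeR adjusted p = 0.0392), and here the first exposed pool lay above the third control. Cyp2p10, next in the row, had 11.6, 5.48 and 12.5 CPM against 4.90, 7.94 and 12.9 CPM in the controls, overlapping groups that did not pass the test (edgeR, adjusted p = 0.775); its 95% interval ran from -0.57 to 0.97 on the log2 scale.

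The cyp2ad genes of the same row differed among themselves. Cyp2ad6 had 6.19, 4.12 and 2.51 CPM at 5 mg/L FBSA, against 9.83, 8.54 and 6.85 CPM in the controls, a fall of all pools below the controls (-0.98 ± 0.27, edgeR adjusted p = 0.0213). This call held in 3 of the 6 fits that left out 1 pool. Cyp2ad2 had 2.76, 3.48 and 2.33 CPM against 14.9, 12.3 and 2.97 CPM in the controls, where the third control fell among the exposed pools and the test was not passed (-1.81 ± 0.73, edgeR adjusted p = 0.0994). Cyp2ad3, the member with the least spread between pools, had 88.5, 85.0 and 87.6 CPM against 98.0, 84.9 and 93.2 CPM in the controls. Its groups overlapped, and the interval of its log2 fold change, -0.30 to 0.14, was narrow. Cyp2v1 had 7.11, 13.2 and 9.07 CPM against 11.6, 10.3 and 6.33 CPM and cyp2j20 had 2.32, 2.03 and 2.40 CPM against 2.50, 4.07 and 3.41 CPM in the controls. Neither passed the test, although the 3 exposed pools lay below the 3 controls for cyp2j20. In the row as a whole 6 of 11 members fell, with a median log2 fold change of -1.21.

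**Figure D2:**
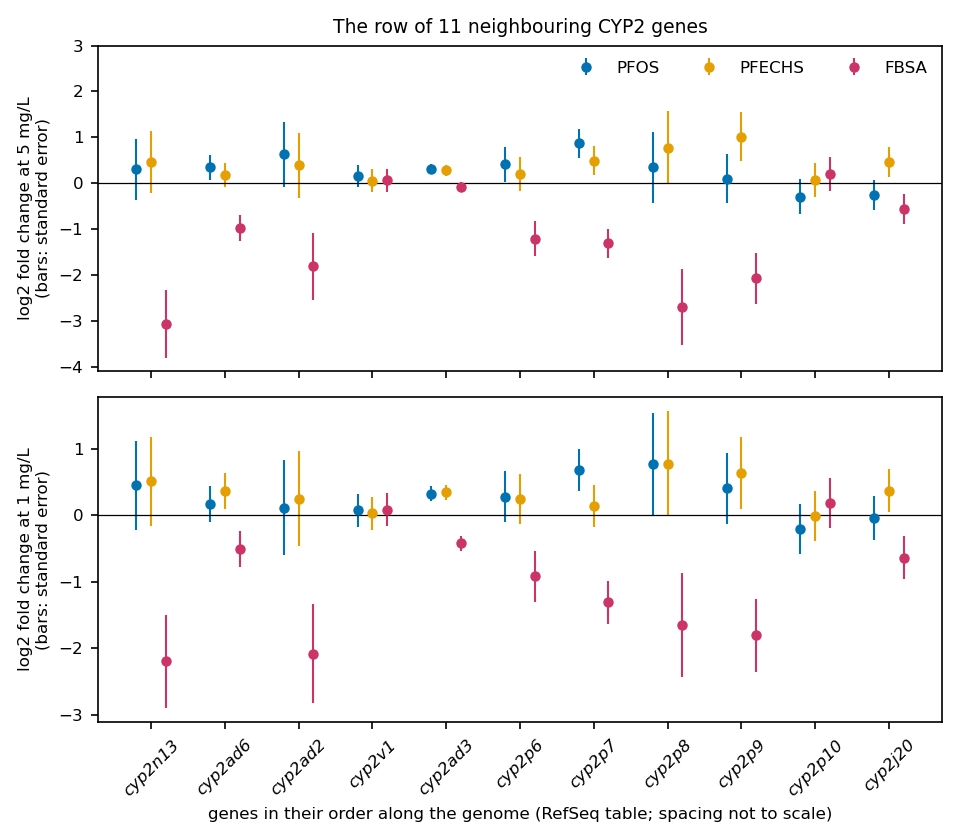
Log2 fold change with standard error (vertical axis) of the 11 genes of the row, in their order along the genome (horizontal axis), at 5 mg/L (upper panel) and 1 mg/L (lower panel) of PFOS, PFECHS and FBSA. Under FBSA the genes cyp2n13, cyp2ad2 and cyp2p6 to cyp2p9 lie below 0 at both concentrations while cyp2v1 and cyp2p10 lie near 0, from -3.07 for cyp2n13 to 0.20 for cyp2p10 at 5 mg/L.

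Among the CYP3 genes none passed the test at 5 mg/L FBSA. Cyp3a65, the CYP3A gene of the zebrafish intestine and liver, had 17.5, 18 and 7.84 CPM at 5 mg/L FBSA, against 98.4, 81.0 and 17.4 CPM in the controls. The third control pool, at 17.4 CPM, lay among the exposed pools, and the log2 fold change of -2.18 ± 0.75 had an adjusted p of 0.0533 (edgeR). Without that control pool the log2 fold change was -2.63 and the adjusted p 0.0213, and leaving out any other of the 6 pools gave -2.37 to -1.77 with adjusted p of 0.052 to 0.284. Cyp3c3 had 0.884, 1.48 and 0.635 CPM against 12.8, 6.16 and 1.13 CPM in the controls (edgeR, adjusted p = 0.0631), and cyp3c4 had 1.88, 2.6 and 1.16 CPM against 9.47, 9.48 and 1.65 CPM (edgeR, adjusted p = 0.0618). Both showed the same pattern as cyp3a65, with 2 high control pools and the third as low as the exposed ones. Cyp3c1, in the same row, had 18.1, 23.4 and 25.6 CPM against 26.5, 26.9 and 13.8 CPM in the controls, and its interval was -0.62 to 0.62 on the log2 scale. Cyp3c2 was too low to test.

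The 2 remaining calls were cyp2ae1 and cyp2x9. Cyp2ae1, at the end of the cyp2aa row, had 1.77, 1.51 and 1.2 CPM at 5 mg/L FBSA, against 2.93, 3.47 and 2.09 CPM in the controls, without overlap (-0.92 ± 0.26, edgeR adjusted p = 0.0213). Its call held in 4 of the 6 fits that left out 1 pool. Cyp2x9 had 2.87, 4.51 and 3.07 CPM against 12.6, 10.4 and 4.02 CPM in the controls (-1.36 ± 0.45, edgeR adjusted p = 0.0473). Here the third control pool lay inside the exposed range, and the call was lost in 8 of 13 alternatives. The 9 cyp2aa genes, an expanded fish subfamily, gave 0 calls: the 10 members of that row had a median log2 fold change of -0.44, and cyp2aa4 had 0.737, 0.394 and 0.600 CPM against 1.11, 1.23 and 1.35 CPM in the controls, without overlap (edgeR, adjusted p = 0.217). The 7 tested genes of the cyp2k row, a subfamily whose rainbow trout member CYP2K1 hydroxylates fatty acids, also gave 0 calls, with a median of -1.22.

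Members outside these rows did not pass the test at 5 mg/L FBSA either. CYP2R1, the vitamin D hydroxylase of mammals, had 2.62, 2.57 and 1.66 CPM against 4.97, 5.96 and 4.02 CPM in the controls, with no overlap (edgeR, adjusted p = 0.0900). CYP2U1, a fatty acid hydroxylase in humans, had 1.29, 1.48 and 1.27 CPM against 2.43, 2.86 and 1.16 CPM in the controls, overlapping groups (edgeR, adjusted p = 0.231). Cyp2y3 had 9.50, 31.8 and 10.4 CPM against 51.1, 50.9 and 4.43 CPM in the controls. Here the third control pool was the lowest of the 6 pools, and the adjusted p was 0.438 (edgeR). In the cyp2k row, cyp2k19 had 6.48, 10.6 and 4.20 CPM against 13.6, 27.8 and 8.31 CPM and cyp2k6 had 0.0737, 0.212 and 0.212 CPM against 0.715, 0.458 and 0.0550 CPM in the controls. These groups overlapped as well.

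**Figure D3:**
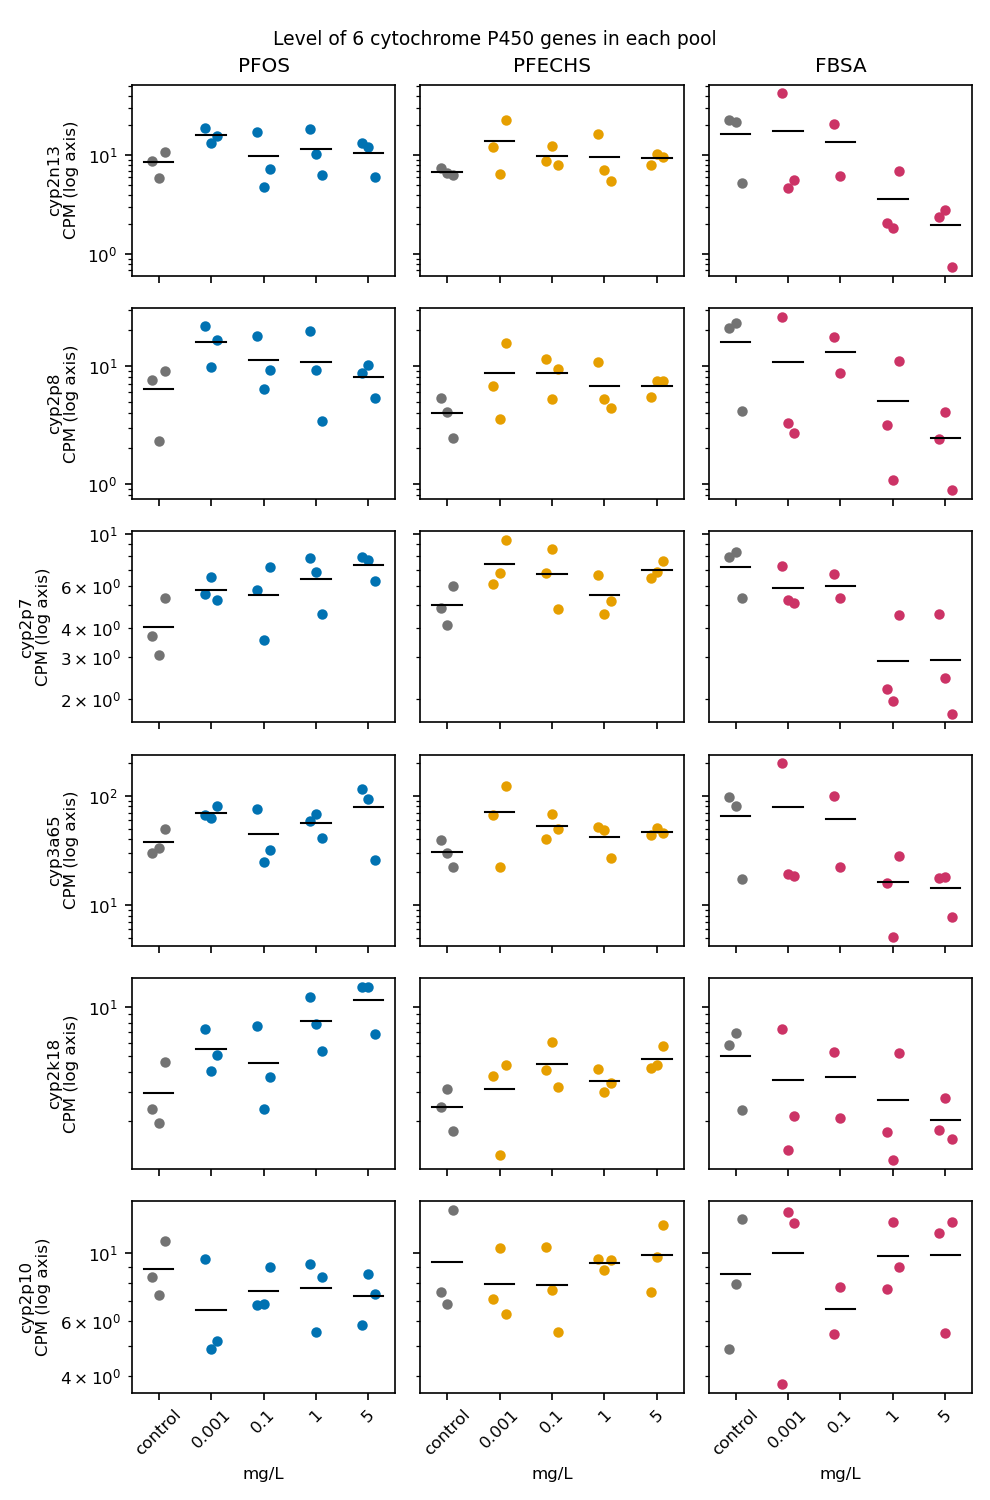
Level in CPM (logarithmic vertical axis) of cyp2n13, cyp2p8, cyp2p7, cyp3a65, cyp2k18 and cyp2p10 in each pool, by compound and concentration in mg/L; grey points are solvent controls, coloured points exposed pools and bars group means. Under FBSA the first 4 genes are low at 1 and 5 mg/L, with the third control pool near the exposed pools (5.20 CPM for cyp2n13), and cyp2k18 reaches 13.3 CPM at 5 mg/L PFOS.

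At 1 mg/L FBSA no member passed the test (0 of 40 in edgeR, 0% of all genes in either direction), although levels were again below the controls. The log2 fold change was below 0 for 36 of 40 members, against 46.9% of all genes, with a median of -0.70 over the members and 0.02 over all genes. Medians of organ markers there were -1.34 for intestine, -1.08 for exocrine pancreas and -0.65 for liver, with 0 calls. Those of kidney and neuron markers were 0.18 and 0.14. Unadjusted p under 0.05 with a lower level was found for 14 members, against 3.29% of all genes. DESeq2 called 1 member, and its share over all genes is not given. Cyp2p7 had 2.21, 1.96 and 4.52 CPM at 1 mg/L FBSA, against 7.93, 8.37 and 5.34 CPM in the controls, with no overlap (edgeR, adjusted p = 0.301). Cyp2ad3 had 74.1, 56.6 and 75.3 CPM against 98.0, 84.9 and 93.2 CPM in the controls, also without overlap (edgeR, adjusted p = 0.301), while its pools at 5 mg/L overlapped the controls. Cyp3a65 had 15.9, 5.08 and 28 CPM against 98.4, 81.0 and 17.4 CPM in the controls, overlapping groups.

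At the 2 lower FBSA concentrations no member passed the test, and the median change over the members lay near 0. The median log2 fold change was -0.09 at 0.001 mg/L and -0.10 at 0.1 mg/L, with 23 and 22 of 40 members below 0, against 45.8% and 51.0% of all genes. Unadjusted p was under 0.05 for 0 members at either concentration by edgeR, against 1.14% and 3.22% of all genes, of which 0% passed the adjusted threshold, and DESeq2 called 0 members at both. The spread was wide: cyp2n13 had 42.4, 4.62 and 5.59 CPM at 0.001 mg/L and cyp3a65 had 199, 19.0 and 18.4 CPM there. In both genes 1 pool stood above every control and 2 pools near the lowest control.

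A linear trend with equal steps over the control and the 4 rising FBSA concentrations was called for 14 members, all falling, against 5.57% of all genes falling. They were cyp2n13, cyp2ad6, cyp2ad2, cyp2p6, cyp2p7, cyp2p8 and cyp2p9 of the row of 11, the CYP3 genes cyp3a65, cyp3c3 and cyp3c4, and cyp2ae1, cyp2aa9, cyp2x9 and CYP2R1. Cyp2n13 fell by 0.84 ± 0.16 per step on the log2 scale (edgeR, adjusted p = 0.00135), cyp2p7 by 0.36 ± 0.07 (0.00142 adjusted) and cyp3a65 by 0.66 ± 0.17 (0.0106 adjusted). For cyp2n13 and cyp2p7 the call held in each of the 14 fits that left out 1 FBSA library, with adjusted p up to 0.152 over all 20 alternatives for cyp2n13 and up to 0.137 for cyp2p7. For the other called members it held in 7 to 13 of those fits. The fewest were those of cyp2aa9, which stood at a few counts, with 0.0606 to 0.106 CPM at 5 mg/L FBSA. Over the control and the 4 rising concentrations cyp2n13 averaged 16.5, 17.5, 13.5, 3.59 and 1.96 CPM, and cyp3a65 averaged 65.6, 78.9, 61.3, 16.3 and 14.4 CPM. The lower means stood at the 2 highest concentrations in both genes. In each gene the mean at 0.001 mg/L rests on the 1 high pool given above, the other pools there lying near the lowest control. The number of members called was 2 without the third pool at 5 mg/L, 6 without the second control pool and 9 without the first pool at 0.001 mg/L, where 1.09%, 2.6% and 5.57% of all genes had a falling trend. It was 0 in a fit of the FBSA libraries alone, which called 0% of all genes falling.

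Under PFOS and PFECHS no member passed the test at any concentration, and most members lay on the higher side. The log2 fold change was above 0 for 36, 34, 34 and 33 of 40 members over the 4 rising PFOS concentrations, against 52.8%, 52.8%, 54.0% and 54.8% of all genes. The medians were 0.51, 0.30, 0.33 and 0.35, beside 0.02 to 0.04 over all genes. For PFECHS the counts were 32, 31, 30 and 33 of 40, against 52.2%, 52.5%, 51.5% and 52.6% of all genes, with medians of 0.42, 0.39, 0.25 and 0.30. All 4 concentrations of a compound share its 3 control pools, so the 4 counts are not separate evidence. Medians of 41 other cytochrome P450 identifiers were 0.44, 0.28, 0.24 and 0.35 for PFOS and 0.28, 0.33, 0.29 and 0.18 for PFECHS. Liver markers had medians of 1.13, 0.55, 0.30 and 0.42 for PFOS and 0.97, 0.65, 0.83 and 0.92 for PFECHS. Those of intestine markers were 1.11, 0.49, 0.41 and 0.32, then 0.85, 0.73, 0.41 and 0.24. Neuron markers had medians below 0 throughout. Whether the members moved apart from these lists was not tested. The calls over all genes were few as well: 0%, 0.0176%, 0.00440% and 0.0132% of genes rose and 0%, 0%, 0.00440% and 0% fell over the 4 PFOS concentrations, and 0% passed in either direction at each PFECHS concentration.

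Unadjusted p under 0.05 by edgeR was reached by 3, 0, 3 and 3 members for PFOS and by 1 member at each concentration for PFECHS, in the same order of dose, all of them higher. For all genes on the higher side the shares were 3.79%, 7.47%, 4.18% and 4.32% for PFOS and 2.45%, 2.24%, 1.15% and 4.23% for PFECHS. DESeq2 called 0 members at all 8 of these concentrations. The 3 pools were all above the 3 controls for 15, 4, 5 and 6 members over the 4 rising PFOS concentrations, against 16.4%, 15.0%, 8.70% and 11.1% of all genes, and for 3, 10, 3 and 13 members over those of PFECHS, against 6.68%, 9.14%, 4.11% and 11.4%. They were all below the controls for 1 member at 0.1 mg/L PFOS (14.5% of all genes) and 1 at 1 mg/L PFECHS (4.92%), and for 0 at the others. A PFOS trend over dose was called for 0 members by edgeR (3 at unadjusted p under 0.05) and for 1 by DESeq2, whose share over all genes is not given. A PFECHS trend was called for 0 members by both (1 at unadjusted p under 0.05 by edgeR). By edgeR 0.211% of all genes had a rising and 0.137% a falling PFOS trend, and 0% a PFECHS trend. A rising trend at unadjusted p under 0.05 was found for 4.70% of all genes with PFOS and 2.27% with PFECHS.

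The members with the smallest p at 5 mg/L PFOS were cyp2k18, cyp2ad3 and cyp2p7. Cyp2k18 had 13.1, 13.3 and 6.77 CPM at 5 mg/L PFOS, against 2.36, 1.95 and 4.62 CPM in the controls. No exposed pool overlapped a control, and the log2 fold change of 1.90 ± 0.57 had an adjusted p of 0.292 (edgeR). Its group means over the control and the 4 rising PFOS concentrations were 2.98, 5.49, 4.56, 8.21 and 11.1 CPM, with standard deviations of 1.44, 1.67, 2.72, 3.10 and 3.71 CPM (n = 3 each). Cyp2ad3 had 97.9, 94.7 and 83.2 CPM against 67.9, 76.1 and 79.3 CPM in the controls, a small separation (log2 fold change 0.30 ± 0.11, edgeR adjusted p = 0.430). Cyp2p7 had 7.99, 7.70 and 6.31 CPM against 3.67, 3.07 and 5.36 CPM in the controls (edgeR, adjusted p = 0.431). Cyp3a65 had 117, 93.7 and 25.8 CPM against 30.0, 33.1 and 50.1 CPM in the controls; the third exposed pool lay below every control, and the interval of the log2 fold change was -0.40 to 2.53.

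At 5 mg/L PFECHS the smallest p were those of cyp2ad3, cyp2p9 and cyp2k18. Cyp2ad3 had 104, 96.6 and 95.6 CPM at 5 mg/L PFECHS, against 80.2, 75.7 and 88.6 CPM in the controls (0.28 ± 0.11 on the log2 scale, edgeR adjusted p = 0.704). Cyp2p9 had 11.7, 15.3 and 14.8 CPM against 7.84, 3.21 and 9.60 CPM in the controls, and cyp2k18 had 4.21, 4.41 and 5.73 CPM against 2.45, 3.13 and 1.73 CPM. In these 3 genes every exposed pool lay above every control, without passing the test. Cyp3a65 had 44.3, 50.7 and 45.3 CPM against 39.8, 30.1 and 22.3 CPM in the controls, again above all of them (log2 fold change 0.61, interval -0.85 to 2.07).

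**Figure D4:**
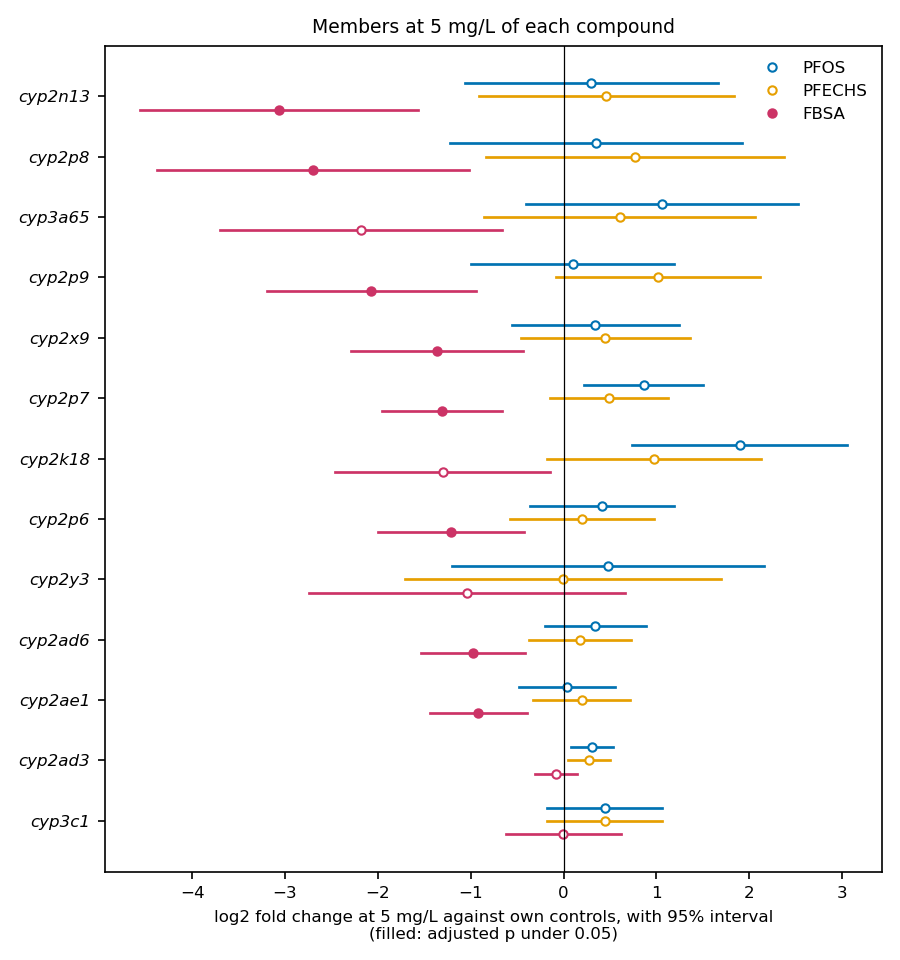
Log2 fold change with 95% interval (horizontal axis) at 5 mg/L of PFOS, PFECHS and FBSA against the controls of each series, for the called members, the 3 with the smallest p per compound and cyp3a65, cyp3c1 and cyp2y3 (vertical axis). Filled points passed the test: those of FBSA lie left of 0, from -3.07 for cyp2n13 to -0.92 for cyp2ae1, and no point of PFOS or PFECHS is filled.

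The change under each compound was set against that under another at matched concentrations, which gave 3 pairs at 4 concentrations, or 12 tests per gene. FBSA, the sulphonamide, differed from the sulphonate PFOS at 5 mg/L for 4 members, all lower under FBSA (2.30% of all genes). For cyp2p7 the difference in log2 fold change, FBSA minus PFOS, was -2.17 ± 0.45 (edgeR, adjusted p = 0.00963, or 0.0454 adjusted over all genes and the 12 tests). This difference kept its call in 11 of 12 fits that left out 1 pool and had adjusted p up to 0.0555 over 17 alternatives. The difference was -3.20 ± 0.80 for cyp2k18, -1.32 ± 0.38 for cyp2ad6 and -3.37 ± 0.98 for cyp2n13. Their edgeR adjusted p were 0.0232, 0.0429 and 0.0436 within this comparison and 0.102, 0.193 and 0.197 over the 12 tests. In the same order, these calls held in 8, 4 and 2 of the 12 fits that left out 1 pool. The log2 fold change of cyp2k18 was below 0 under FBSA, where its pools, at 1.55 to 2.76 CPM, overlapped the FBSA controls. Under PFOS its pools lay above the PFOS controls, and neither change passed the test by itself.

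FBSA differed from PFECHS at 5 mg/L for 5 members, again all lower under FBSA (4.81% of all genes). These were cyp2p7 (-1.80 ± 0.45), cyp2p9 (-3.09 ± 0.77), cyp2n13 (-3.53 ± 0.99), cyp2ae1 (-1.11 ± 0.36) and cyp2p8 (-3.47 ± 1.13). Their edgeR adjusted p lay between 0.0136 and 0.0487, and between 0.0967 and 0.29 over the 12 tests. In the order named, the calls held in 10, 10, 8, 4 and 3 of 12 fits that left out 1 pool. At 1, 0.1 and 0.001 mg/L 0 members differed between FBSA and either sulphonate by edgeR (0% of all genes), although 13 members at 1 mg/L had unadjusted p under 0.05 against PFOS (4.25% of all genes lower) and 13 against PFECHS (2.27%). DESeq2 called 2 and 1 members at 1 mg/L, and its shares over all genes are not given. Without the third pool at 5 mg/L FBSA both counts at 5 mg/L were 0, with 0.154% and 0.846% of all genes lower. They were 12 and 13 without the third FBSA control pool (5.31% and 7.1% of all genes), 13 and 11 without the second pool at 5 mg/L (9.96% and 11.9%), and 1 and 0 without the second FBSA control pool (0.203% and 0.952%). The count against PFOS was 1 to 2 without any 1 of the PFOS control pools (0.63% to 1.54% of all genes lower). It was 2 without pool 1 or pool 3 at 5 mg/L PFOS or pool 1 of the FBSA controls (1.09%, 0.626% and 2.07%). The count against PFECHS was 3 without any 1 of the PFECHS control pools (2.28% to 3.67%). It was also 3 without pool 2 at 5 mg/L PFECHS or pool 1 of the FBSA controls (2.21% and 4.62%). Without pool 3 at 5 mg/L PFECHS it was 2 (1.86%).

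The ring of PFECHS against the straight chain of PFOS went with no called difference among the members at any of the 4 concentrations (0 of 40 by edgeR and 0 by DESeq2, 0 members at unadjusted p under 0.05). Among all genes 0% passed, and the shares at unadjusted p under 0.05 were 0.947%, 1.40%, 1.29% and 1.06% over the rising concentrations. The intervals were wide for most genes. At 5 mg/L the difference in log2 fold change, PFECHS minus PFOS, was 0.16 for cyp2n13 (95% interval -1.77 to 2.09) and -0.46 for cyp3a65 (-2.51 to 1.60). It was -0.03 for cyp2ad3 (-0.35 to 0.29), the narrowest of them. Differences of 2-fold or more in either direction are inside the intervals of cyp2n13 and cyp3a65.

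The solvent controls of the 3 series were compared because each difference between compounds includes them. FBSA controls minus PFOS controls had a median log2 difference of 0.60 over the members (35 of 40 above 0, against 53.1% of all genes), and FBSA controls minus PFECHS controls one of 0.71 (37 of 40, against 52.5%). No member passed the edgeR test in either (4 and 8 at unadjusted p under 0.05, all higher in the FBSA controls, against 9.61% and 12.3% of all genes). By adjusted p 0.0749% of all genes were higher and 0.0749% lower than in the PFOS controls, and 0% differed from the PFECHS controls. DESeq2 called 0 and 2 members, and its shares over all genes are not given. The organ markers described below differed as well, though 0 of them passed the edgeR test. FBSA controls minus PFOS controls had medians of 0.78 for intestine, 0.75 for exocrine pancreas and 0.59 for liver markers. Minus PFECHS controls these were 1.01, 1.21 and 1.10. Neuron markers had medians below 0 in both. When the pools at 5 mg/L FBSA were set beside the 9 controls of all 3 series, 2 members stayed below every control, against 2.13% of all genes. These were cyp2n13, at 0.741 to 2.79 CPM against 5.20 to 22.9 CPM in the 9 controls, and cyp2ad6, at 2.51 to 6.19 CPM against 6.85 to 9.83 CPM. With the mean of the 3 control groups in place of the FBSA controls, an alternative chosen after the data were seen, the same 2 members were called by edgeR, cyp2n13 at -2.32 (adjusted p = 0.0274) and cyp2ad6 at -0.87 (adjusted p = 0.0209).

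Markers of the intestine and the exocrine pancreas fell in part at 5 mg/L FBSA, and liver markers gave 0 calls. Of all genes tested, 5.44% fell and 5.79% rose in this comparison. The CPM summed over 18 tested identifiers of intestine markers, which hold none of the members (CDH17 is on the kidney list too), was 307, 401 and 155 at 5 mg/L FBSA, against 1346, 1327 and 361 in the FBSA controls. The third control pool was again the low one. Of the 18, 8 fell and 0 rose at 5 mg/L FBSA (median log2 fold change -1.89), led by RBP2, apoa4b.2 and apoa4b.3, carriers of retinol and lipid in the gut lining. FABP2, the intestinal fatty acid binding protein, had a log2 fold change of -1.41 ± 0.54 (edgeR, adjusted p = 0.0837). Exocrine pancreas markers fell for 8 of 13 with 0 rising (median -2.18; amy2al2, ela2 and amy2a with the smallest p) and summed to 132, 239 and 113 CPM at 5 mg/L FBSA, against 527, 953 and 235 CPM in the controls. Of the liver markers 0 of 15 passed the test (median -0.81), and their sum was 162, 588 and 178 CPM against 712, 1009 and 189 CPM in the controls. The liver fatty acid binding protein fabp10a had -1.05 ± 0.64 (edgeR, adjusted p = 0.288). Kidney markers gave 2 rising of 10 (PAX2 and SLC20A1, median 0.24) and neuron markers 1 rising of 10 (SNAP25, median 0.31). RBP2, PAX2, SLC20A1 and SNAP25 each have 2 identifiers, of which 1 passed. At most 1 gene of each digestive organ's list stood at 0 CPM in any pool.

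Pools at the extremes of other FBSA groups had both sums high or both low. The pool with the highest intestine sum, the first at 0.001 mg/L FBSA with 2250 CPM, also had the highest member sum of 783 CPM, and the pool with the lowest, the second at 1 mg/L FBSA with 148 CPM, had the lowest member sum of 168 CPM. At 5 mg/L the intestine sum was 1001, 873 and 444 CPM for PFOS, against 585, 515 and 781 CPM in its controls, and 668, 752 and 591 CPM for PFECHS, against 806, 513 and 367 CPM in its controls. In pools of whole embryos fewer cells of a type and less RNA per cell cannot be told apart, and the part of these organs in the lower member levels was not tested.

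**Figure D5:**
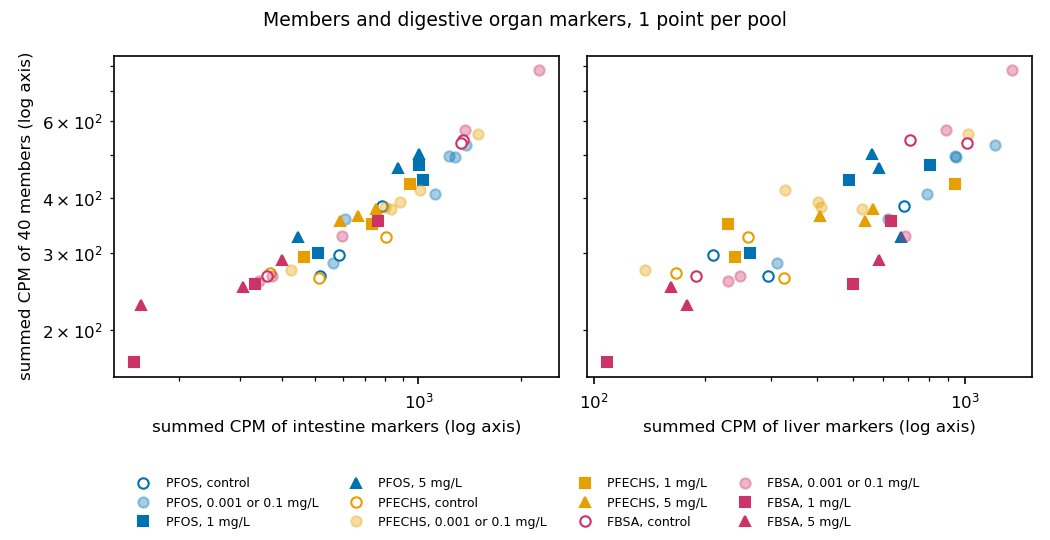
CPM summed over the 40 members (vertical, logarithmic) against CPM summed over intestine markers (left) or liver markers (right, both logarithmic), 1 point per pool; open circles are controls, pale circles 0.001 or 0.1 mg/L, squares 1 mg/L and triangles 5 mg/L. The points run from 168 CPM of members at 148 CPM of intestine markers to 783 at 2250.

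Of 24 identifiers tested of genes that supply the P450 enzymes with electrons and heme, 1 rose and 3 fell at 5 mg/L FBSA, with a median of -0.19, against 5.79% of all genes rising and 5.44% falling. POR is present under 2 identifiers: ENSDARG00000055092 rose (log2 fold change 0.41 ± 0.11, edgeR adjusted p = 0.0161) and ENSDARG00000059035 had -0.64 ± 0.50 (adjusted p = 0.413). The falling genes were hmox2b, a heme oxygenase that breaks heme down (-1.55 ± 0.34), BLVRA, biliverdin reductase of the same path (-0.85 ± 0.22), and ALAS1, the first enzyme of heme synthesis (-0.66 ± 0.21), with edgeR adjusted p of 0.00429, 0.0138 and 0.0381. At 5 mg/L PFOS and PFECHS 0 of the 24 passed the test, and BLVRA had a rising PFOS trend (0.23 per step on the log2 scale, edgeR adjusted p = 0.0357).

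Of 33 identifiers of nuclear receptors and liver factors, 2 rose and 3 fell at 5 mg/L FBSA (median -0.43), against the same shares of all genes. ARNT2, a partner of basic helix-loop-helix factors, rose (0.88 ± 0.21), and RXRA, the partner of NR1I2 (-0.52 ± 0.14), and VDR, the vitamin D receptor (-1.57 ± 0.46), fell, with edgeR adjusted p of 0.00713, 0.0162 and 0.0253. RXRA is present under 2 identifiers and VDR under 3: those that fell are ENSDARG00000057737 and ENSDARG00000070721, and the other RXRA identifier (-0.50 ± 0.97) and the other two of VDR (-0.50 ± 0.55 and -0.65 ± 0.55) did not pass. NR1I2 itself had -0.69 ± 0.30 at 5 mg/L FBSA (adjusted p = 0.123), 0.53 ± 0.30 at 5 mg/L PFOS (adjusted p = 0.692) and 0.58 ± 0.30 at 5 mg/L PFECHS (adjusted p = 0.713). Among 41 identifiers of other cytochrome P450 families 2 rose and 0 fell at 5 mg/L FBSA, with a median of -0.19 that was smaller in size than that of the members, a difference that was not tested. The risers were CYP24A1, which inactivates vitamin D (2.44 ± 0.45, edgeR adjusted p = 0.0014), and cyp39a1, an oxysterol hydroxylase in mammals (1.38 ± 0.39, edgeR adjusted p = 0.0237).

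The FBSA trend over dose, rising for 5.61% and falling for 5.57% of all genes, was called for further genes of these lists. Among donors and heme genes 1 rose (POR) and 3 fell, with BLVRA and hmox2b first by p, and among receptors and factors 3 rose and 3 fell, with ARNT2 and FOXA1 rising and RXRA falling by the smallest p. Of the other P450 genes 3 rose and 4 fell: CYP24A1 rose, and CYP51A1 of sterol synthesis and cyp4t8 fell, by the smallest p. The intestine list had 11 falling of 18 (RBP2, apoa4b.3 and apoa4b.2 first), the exocrine pancreas list 9 of 13 (amy2al2, ela2 and ctrb.2 first), and the liver list 0 of 15. Kidney markers had 2 rising (PAX2 and SLC5A12) and 1 falling (pdzk1), and neuron markers 2 rising (ELAVL4 and SNAP25). In the difference between FBSA and PFOS at 5 mg/L 0 intestine and 0 liver markers passed the test. Their median differences were still -2.05 and -1.10, and that of exocrine markers -2.64, beside -1.49 over the members. Of the exocrine markers 4 of 13 were lower under FBSA, against 2.30% of all genes. Against PFECHS 2 intestine, 1 liver (fabp10a) and 7 exocrine markers were lower under FBSA, beside 4.81% of all genes. Their medians were -2.10, -1.66 and -2.72, beside -1.30 over the members. Kidney and neuron markers had medians above 0 in both differences.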

How the data were processed

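The authors deposited expected counts (estimates per gene): in each library between 54.1% and 79.8% of the entries carry a fraction. Per the submitters' processing notes, FastQC and MultiQC served for read checks and Trimmomatic for trimming. The counting program is not given in the sources used here, nor is the build. Column names spelled FSBA were taken as FBSA, as in the sample titles. Before any test each deposited value was rounded to the nearest integer.

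Testing used R 4.3.3 and edgeR 4.0.16: genes were filtered by group with filterByExpr (minimum count 10), scaled by TMM and fitted in one quasi-likelihood model over 44 libraries and 15 groups (29 residual degrees of freedom, common dispersion 0.068). Each standard error was obtained as the size of the change over the square root of F. Adjusted p-values are Benjamini-Hochberg over 22703 genes, and for differences between compounds also over the 12 tests together. CPM for single pools uses TMM library sizes, and within-group spread uses log2 CPM with a prior count of 2. The calculation was run on simulated data in which all groups of a gene had the same dispersion. It could not test the effect of a wider spread among FBSA pools. A difference smaller than the spread between pools is not resolved at 3 pools per group, and values at a few counts carry counting error on top.

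Members were taken by the rule on symbols, and the lists were chosen with earlier results of these data known. Named were 20 members of fixed interest where tested, every member called, the 3 with the smallest p at 5 mg/L of each compound, up to 3 called genes per list and contrast, and nr1i2, por, fabp10a and fabp2. Cyp2p10, cyp2j20 and single values of others were added after their values were seen. Lists are described by counts and medians, with no test of the list. List symbols were matched by symbol, by RefSeq synonym or by the symbol without its copy letter. Replicate numbers were not used to pair the pools in the main fit. In 0 of 3 compounds was every same-number pair correlated over 0.1, a strict rule whose failure does not exclude pairing. Alternatives were median-ratio scaling, DESeq2 1.42.0, no filter, the compound's libraries alone, a replicate block, a term for the last 11 table columns, CPM without TMM factors, leaving out each library and, chosen after seeing the data, the controls of all 3 series. Sequences are not used here.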

Additional observations from a re-analysis of the deposited data

Results flagged for a closer look

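The change under FBSA at 5 mg/L differed from that under another compound for 9 pairs of member and comparison, by the edgeR test of the difference itself. FBSA minus PFOS was -2.17 for cyp2p7, -3.20 for cyp2k18, -1.32 for cyp2ad6 and -3.37 for cyp2n13 on the log2 scale. FBSA minus PFECHS was -1.80 for cyp2p7, -3.09 for cyp2p9, -3.53 for cyp2n13, -1.11 for cyp2ae1 and -3.47 for cyp2p8. Cyp2p7 and cyp2n13 appear in both comparisons, which share the FBSA pools. Among all genes 2.30% were lower in the comparison with PFOS and 4.81% in that with PFECHS. Over all 12 tests of this kind the call was kept for cyp2p7 against PFOS alone (adjusted p = 0.0454). With 1 pool left out, calls held in 11 of 12 fits for cyp2p7 against PFOS, the most, and in 2 of 12 for cyp2n13 against PFOS, the fewest. The CPM summed over intestine markers moved the same way, at 307, 401 and 155 in the pools at 5 mg/L FBSA, against 1346, 1327 and 361 in the FBSA controls, and its part in these differences was not tested.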

How the results depend on the processing

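Counts of members called moved by more than 1.5 times for at least 1 comparison under each kind of setting tried except median-ratio scaling and the replicate block. Shares of all genes lower in the same fit are given in brackets. At 5 mg/L FBSA the count was 8 (5.44%) in the main fit and 0 (0%) with the FBSA libraries alone. It was 13 (4.71%) with a term for the last 11 table columns and 2 (2.69%) with the controls of all 3 series. The FBSA trend was called for 14 members (5.57%) in the main fit and 0 (0%) with the FBSA libraries alone. For FBSA minus PFOS at 5 mg/L the count was 4 (2.30%) in the main fit, 12 (2.56%) with the column term and 9 (3.78%) with DESeq2. For FBSA minus PFECHS it was 5 (4.81%) in the main fit and 3 (4.05%) without the filter. It was 10 (3.81%) with the column term and 10 (5.77%) with DESeq2. DESeq2 called 1 member at 1 mg/L FBSA, 1 for the PFOS trend, 2 for FBSA minus PFOS and 1 for FBSA minus PFECHS at 1 mg/L, and 2 between the FBSA and PFECHS controls, where edgeR called 0. The shares of all genes that DESeq2 called in these comparisons are not given, so these counts cannot be set against a background. Leaving out 1 library gave 0 to 14 members at 5 mg/L FBSA (0.331% and 7.47% of all genes lower in those fits) and 2 to 17 for its trend (1.09% and 6.47%). It gave 0 to 13 for FBSA minus PFOS at 5 mg/L (0.154% and 9.96%). For FBSA minus PFECHS at 5 mg/L it gave 0 to 13 (0.846% or 0.952%, and 7.1%). It gave 0 to 1 members at 1 mg/L FBSA and 0 to 3 between the FBSA and PFECHS controls. Over all genes, in either direction, such fits called 0 to 89 genes and 0 to 1653 genes in that order. The main fit tested 22703 genes. With the replicate block the counts were 7, 11, 4 and 6 for 5 mg/L FBSA, its trend, FBSA minus PFOS and FBSA minus PFECHS. The shares of all genes lower were then 6.17%, 5.4%, 3.13% and 5.77%. Same-number pools correlated on average by 0.02, -0.03 and 0.08 in PFOS, PFECHS and FBSA, and pools of different number by -0.01, 0.02 and -0.05. In FBSA 13 of 26 same-number pairs lay over 0.1. These values do not settle whether the numbers pair the pools. Some values near 0 changed sign. Cyp3c1 at 5 mg/L FBSA (0.00) was 0.0174 with median-ratio scaling, 0.0170 with DESeq2, 0.00048 without the filter, 0.0106 with the FBSA libraries alone, 0.0669 with the replicate block, 0.22 with the controls of all 3 series, and -0.25 to 0.15 when 1 library was left out. Cyp2v1 there (0.06) was -0.0238 with the column term and -0.22 to 0.24 when 1 library was left out, and cyp2ad3 (-0.08) was 0.0803 with the controls of all 3 series. The cause was not tested. Sums of CPM without TMM factors moved by less than 1 SD in all 15 groups. Members with fewer than 1 CPM are limited by depth.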
